A study of Homo sapiens with 4 samples.

Results

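The aryl hydrocarbon receptor axis was described here through 8 listed genes, namely the receptor AHR, its dimerization partners ARNT and ARNT2, the cytochrome P450 genes CYP1A1, CYP1A2 and CYP1B1, and the feedback inhibitors AHRR and TIPARP. Members were found as rows of the deposited table annotated with that single gene symbol, and each member found had 1 such row. Of the 8 genes, 7 had a row, out of 18417 genes with a row of a single symbol on the array. AHRR was not measured by itself, because its only row is annotated to PDCD6 as well. CYP1B1 lay among the dimmest 33.3% of rows by mean over the 4 arrays, which did not enter the fit, so 6 members stood among the 14147 genes tested. RNA came from HepG2, a hepatocellular carcinoma cell line, on 4 one-colour Affymetrix arrays. Of these, 2 arrays held cells given anti-miR-191, an antisense inhibitor of the microRNA miR-191, and 2 held cells given the negative control anti-miR (anti-miR-NC), with both groups transfected by the lipid reagent Oligofectamine. Each group was treated once in each of 2 independent experiments, so that every experiment gave 1 array of each group. The labels name no receptor ligand among the treatments, and do not say how long after transfection RNA was taken.

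AHR is a transcription factor of the bHLH-PAS family that waits in the cytosol in a complex with HSP90 and binds planar aromatic compounds such as dioxins, polycyclic hydrocarbons and some tryptophan metabolites. With a ligand it moves to the nucleus, pairs with ARNT and binds short DNA elements that contain the letters GCGTG, which raises transcription of CYP1A1, CYP1A2, CYP1B1, AHRR and TIPARP. In liver the CYP1 enzymes oxidize many of these compounds, while AHRR and TIPARP dampen the receptor, so that the pathway limits itself. CYP1A1 transcript is a standard readout of receptor activity in HepG2 cells.

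The inhibitor was directed at miR-191. The label does not say which mature strand is meant, so both strands are shown as RefSeq gives them on GRCh38.p14, with the seed (bases 2 to 8), which pairs with target transcripts, in capitals.
hsa-miR-191-5p: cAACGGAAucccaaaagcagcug
hsa-miR-191-3p: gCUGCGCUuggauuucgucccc

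The windows from 250 bases before to 50 bases after the transcription start are shown for AHR, for the 2 inducible genes with the largest changes below, and for CYP1A2, the neighbour of CYP1A1. They come from RefSeq on GRCh38.p14, which listed a window for 6 of the 8 members. Capitals mark GCGTG or its reverse complement CACGC, searched on both strands.
CYP1A1, chr15:74725479-74725778, minus strand: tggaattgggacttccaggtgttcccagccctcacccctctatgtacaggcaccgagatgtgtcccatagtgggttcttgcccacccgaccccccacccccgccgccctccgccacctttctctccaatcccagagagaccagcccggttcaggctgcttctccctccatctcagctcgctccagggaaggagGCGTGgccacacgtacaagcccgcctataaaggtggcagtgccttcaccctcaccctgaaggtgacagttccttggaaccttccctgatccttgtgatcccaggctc
CYP1A2, chr15:74748595-74748894, plus strand: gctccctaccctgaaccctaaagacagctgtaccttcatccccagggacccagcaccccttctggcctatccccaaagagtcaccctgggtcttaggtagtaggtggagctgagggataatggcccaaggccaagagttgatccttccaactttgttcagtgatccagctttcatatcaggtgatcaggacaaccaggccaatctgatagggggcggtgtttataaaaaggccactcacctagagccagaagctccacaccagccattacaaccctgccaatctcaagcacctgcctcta
TIPARP, chr3:156674340-156674639, plus strand: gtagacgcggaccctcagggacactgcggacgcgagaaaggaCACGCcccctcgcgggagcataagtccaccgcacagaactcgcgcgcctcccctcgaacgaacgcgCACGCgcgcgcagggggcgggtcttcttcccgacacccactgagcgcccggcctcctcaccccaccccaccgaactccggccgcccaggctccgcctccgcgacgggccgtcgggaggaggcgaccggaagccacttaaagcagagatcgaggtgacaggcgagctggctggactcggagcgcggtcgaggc
AHR, chr7:17298402-17298701, plus strand: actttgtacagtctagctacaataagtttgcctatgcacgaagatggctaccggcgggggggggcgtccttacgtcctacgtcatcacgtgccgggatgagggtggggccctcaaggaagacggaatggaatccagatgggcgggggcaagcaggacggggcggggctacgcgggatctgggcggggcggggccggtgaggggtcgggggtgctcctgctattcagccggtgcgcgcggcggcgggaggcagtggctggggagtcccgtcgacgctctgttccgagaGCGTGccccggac

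The CYP1A1 window held 1 match, at positions -57 to -53 from the start. The CYP1A2 window and the ARNT window held 0 matches. TIPARP has 3 start sites in the table, and the window shown is the one that held matches, 2 of them, at -208 to -204 and at -142 to -138. The AHR window held 1 match downstream of the start, at positions 38 to 42. Of the 2 windows listed for AHRR, 1 held a match of the longer form TNGCGTG, which contains GCGTG. Among 35116 windows of this length in the table, 36.5% held GCGTG at least once, 12.7% held 2 or more matches and 5.51% held TNGCGTG. Among the 15733 windows of genes tested, these shares were 46.2%, 17.3% and 6.58%. A match in these letters is a description of the window and not a site of binding. The receptor elements best known for CYP1A1 lie further upstream than this window reaches.

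Levels below are RMA intensities on the log2 scale, and changes are anti-miR-191 minus anti-miR-NC in log2 units, averaged over both experiments and given ± SE. The table holds no detection call, so no level here is shown to be above background, and background within a level can make a fold smaller than the change in transcript. Genes described as risen or fallen had an adjusted p under 0.05 in limma's fit with the experiment as a block. Array medians lay between 4.37 and 4.43, and the values of the anti-miR-191 arrays spread wider (interquartile ranges of 3.38 and 3.43) than those of the controls (3.18 and 3.24). Of 8 hepatocyte markers, 7 had mean levels of 9.22 or more, and FGB had 4.99. Their summed level was 77.9 and 74.2 after anti-miR-191 and 78.7 and 80.4 in controls. The median change of these 8 was -0.46, with medians of 0.02 and -0.91 in experiments 1 and 2. TTR fell by 1.04 ± 0.14, where 3.77% of all genes fell. At an unadjusted p under 0.05, limma had 0 of the 8 higher and 2 lower. Of all 14147 genes tested, 2704 were higher and 1271 lower at that threshold. For 15 markers of other cell types the summed level was 67.8 and 67.5 after anti-miR-191 and 67.7 and 68.0 in controls. Their single mean levels ran from 2.57 (PTPRC) to 9.40 (LYZ) with a median of 3.88, and none passed the test with dim rows kept (limma, 0 at an unadjusted p under 0.05 among the 13 that were not dim). The part of these differences between arrays in the results below was not tested.

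CYP1A1 and TIPARP, both of them targets of the receptor, rose after anti-miR-191, as did AHR and ARNT themselves. CYP1A2, CYP1B1 and ARNT2 did not pass the test. Of the 6 members tested, 4 rose and 0 fell in limma's fit with the experiment as a block, in which 10.1% of all 14147 genes rose and 3.77% fell. At an unadjusted p under 0.05, limma again had 4 members higher and 0 lower. Of all 14147 genes tested, 2704 were higher and 1271 lower at that unadjusted threshold. In the unpaired fit, which leaves the experiment out, CYP1A1 and TIPARP passed, against a background of 3.2% of genes higher and 0.714% lower. The median change of the 6 members was 0.93, against 0.01 over all genes tested. The members were chosen with earlier results of these data known, so these counts and medians describe them and are no test of the group. Both anti-miR-191 arrays stood above both controls for the 4 risen members, a pattern that 29.4% of all genes tested showed. In RNA from whole cultures, more transcript per cell and more responding cells cannot be told apart.

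**Figure D1:**
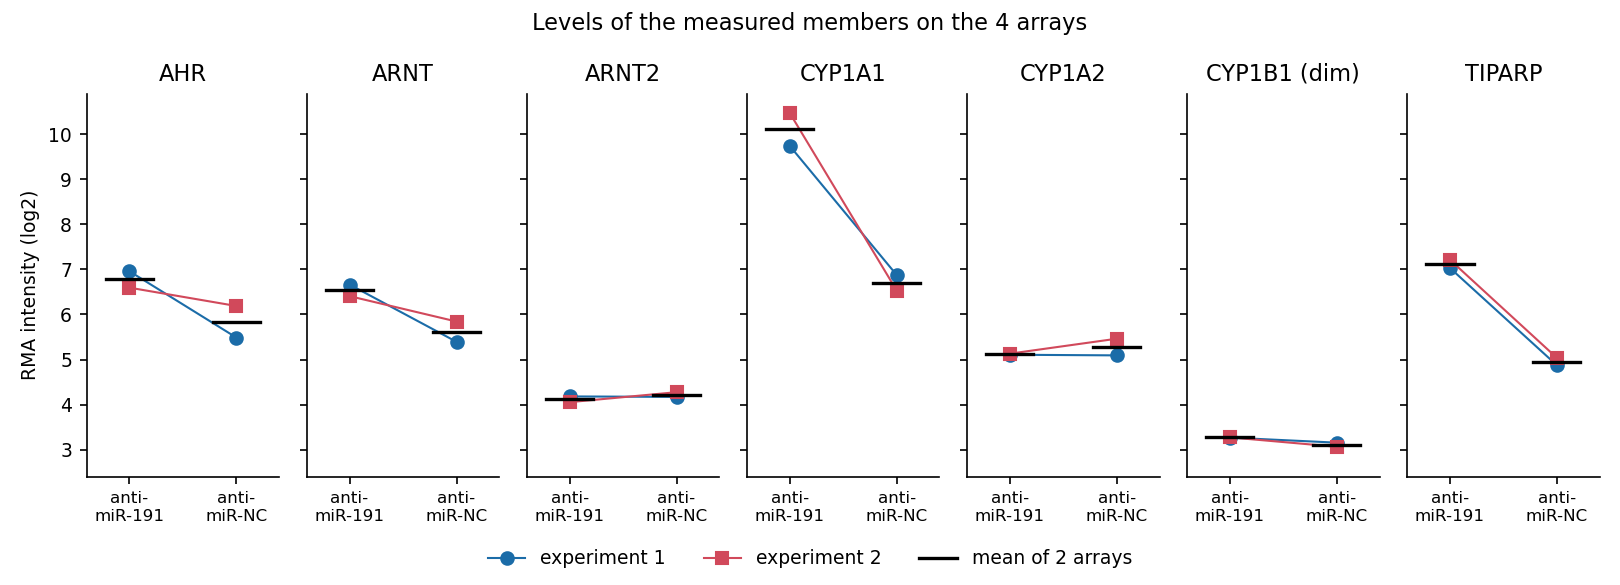
Each panel shows 1 member, with the RMA intensity (log2) on the vertical axis, the anti-miR-191 arrays on the left and the anti-miR-NC arrays on the right. Circles and squares joined by lines are experiments 1 and 2, and bars are means of 2 arrays. CYP1A1 and TIPARP stand well above their controls in both experiments, whereas the lines of CYP1A2, ARNT2 and CYP1B1 are nearly flat.

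CYP1A1, a monooxygenase that oxidizes polycyclic hydrocarbons and is the most responsive of the receptor's targets, had levels of 9.74 and 10.5 after anti-miR-191 in experiments 1 and 2, against 6.87 and 6.53 in controls. The groups were separated by far more than the arrays within a group, which differed by 0.73 after anti-miR-191 and by 0.34 in controls, in opposite directions. The level was 7.28-fold higher in experiment 1 and 15.3-fold higher in experiment 2. Over both experiments CYP1A1 rose 10.6-fold (3.40 ± 0.24, 95% interval 2.84 to 3.96), with limma's adjusted p = 0.0010 with the block and 0.018 without it. This was the largest mean change among the 14147 genes tested in either direction. Ranked by the smaller change of the 2 experiments, CYP1A1 came second to ARRDC3, an alpha-arrestin gene.

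The 2 other CYP1 genes did not pass the test. CYP1A2, the liver enzyme that metabolizes caffeine and aromatic amines, had levels of 5.11 and 5.13 after anti-miR-191, against 5.09 and 5.46 in controls. The groups overlapped, and the changes of 0.01 and -0.33 in experiments 1 and 2 gave a mean of -0.16 ± 0.16 (limma's adjusted p = 0.573). The 95% interval of this change, -0.52 to 0.21, spans from 0.696 to 1.15 on the fold scale. Whether this row reads CYP1A2 transcript above background is not known, so the interval does not show that the gene was not induced. CYP1A1 and CYP1A2 lie next to each other on chromosome 15, with 0 protein-coding genes between them in RefSeq order, and are known to share regulatory DNA. The difference between the changes of the pair was not tested by itself.

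CYP1B1, an enzyme that hydroxylates oestrogens and is found mostly outside the liver, had levels of 3.27 and 3.27 after anti-miR-191 and 3.16 and 3.07 in controls. These levels lay below the limit of 3.41 for dim rows. With dim rows kept, its change was 0.16 ± 0.13 (95% interval -0.15 to 0.47, limma's adjusted p = 0.536).

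TIPARP encodes a mono-ADP-ribosyltransferase, also known as PARP7, that modifies AHR and lowers its activity. It had levels of 7.03 and 7.21 after anti-miR-191, against 4.87 and 5.04 in controls. The 2 experiments gave almost the same change, 2.16 and 2.18, and replicate arrays of either group lay within 0.18 of each other. TIPARP rose 4.49-fold (2.17 ± 0.14, 95% interval 1.83 to 2.50), with limma's adjusted p = 0.00095 with the block and 0.018 without it. It ranked 36th of 14147 genes by mean rise and 15th by the smaller change of both experiments.

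The receptor and its partner rose less, and less evenly. AHR had levels of 6.96 and 6.59 after anti-miR-191, against 5.49 and 6.19 in controls. The groups did not overlap, but the control arrays differed by 0.70, so that the receptor was 2.77-fold higher in experiment 1 and 1.33-fold higher in experiment 2. The mean change was 0.94 ± 0.24 (1.92-fold, 95% interval 0.38 to 1.50), with limma's adjusted p = 0.040. That call was lost without the block (adjusted p = 0.107), with rows below the median level left out (0.051), under median centring (0.052), cyclic loess (0.054) and quantile normalization (0.096), and with trended robust moderation (0.057).

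ARNT, which pairs with AHR on DNA and with the hypoxia factors as well, followed a like course. Its levels were 6.66 and 6.41 after anti-miR-191, against 5.39 and 5.84 in controls, again without overlap and with the larger change in experiment 1 (1.27 against 0.56 in experiment 2). ARNT rose 1.89-fold (0.92 ± 0.19, 95% interval 0.47 to 1.36), with limma's adjusted p = 0.021. The call was lost without the block (0.064) and under quantile normalization (0.054). ARNT2, a paralogue used mainly in the nervous system, had levels of 4.18 and 4.06 after anti-miR-191 and 4.17 and 4.28 in controls. The groups overlapped, and the change was -0.11 ± 0.15 (95% interval -0.45 to 0.24, limma's adjusted p = 0.707).

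The 2 experiments did not rank alike for every member. The change of CYP1A1 was larger in experiment 2 (2.86 in experiment 1 and 3.94 in experiment 2), those of AHR and ARNT were larger in experiment 1, and TIPARP was level. Each experiment has 1 array of each group, so these differences between experiments could not be tested. Across all genes tested the 2 experiments' changes had a Pearson correlation of 0.678, which describes genes on the same 4 arrays.

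**Figure D2:**
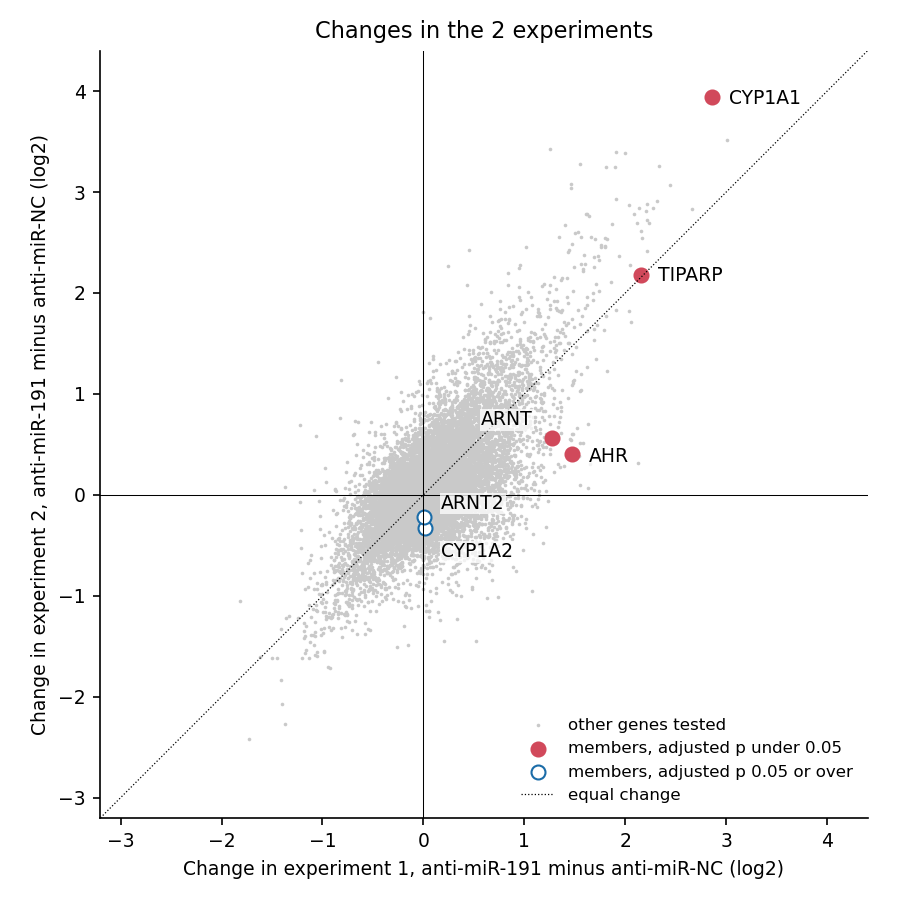
The change (anti-miR-191 minus anti-miR-NC, log2) in experiment 1 is on the horizontal axis and that in experiment 2 on the vertical axis, with 1 point per gene for the 14147 genes tested. CYP1A1 stands at the upper right edge of all genes, TIPARP lies on the dotted line of equal change, AHR and ARNT lie below that line, and ARNT2 and CYP1A2 lie near the origin.

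The calls of CYP1A1 and TIPARP held with all 4 arrays in each of 8 alternatives, with changes between 3.35 and 3.40 for CYP1A1 and between 2.07 and 2.17 for TIPARP. Leaving out 1 array removes the block, and in the unpaired fit of the remaining 3 arrays both passed only when the omitted array was the anti-miR-191 one of experiment 1 (adjusted p = 0.011 and 0.013). When it was either control or the anti-miR-191 array of experiment 2, limma called 0 of the 14147 genes, and 4 members still had an unadjusted p under 0.05 in each. The adjusted p of CYP1A1 was then 0.066 without that anti-miR-191 array, and 0.095 and 0.104 without the controls of experiments 1 and 2, and its change stayed between 3.04 and 3.77 over all 4 omissions. The change of AHR ranged more widely, from 0.59 without the control of experiment 1 to 1.29 without the control of experiment 2, and its call was lost in all 4. An exact permutation test of a single gene with 2 arrays against 2 cannot give a two-sided p below 0.333.

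**Figure D3:**
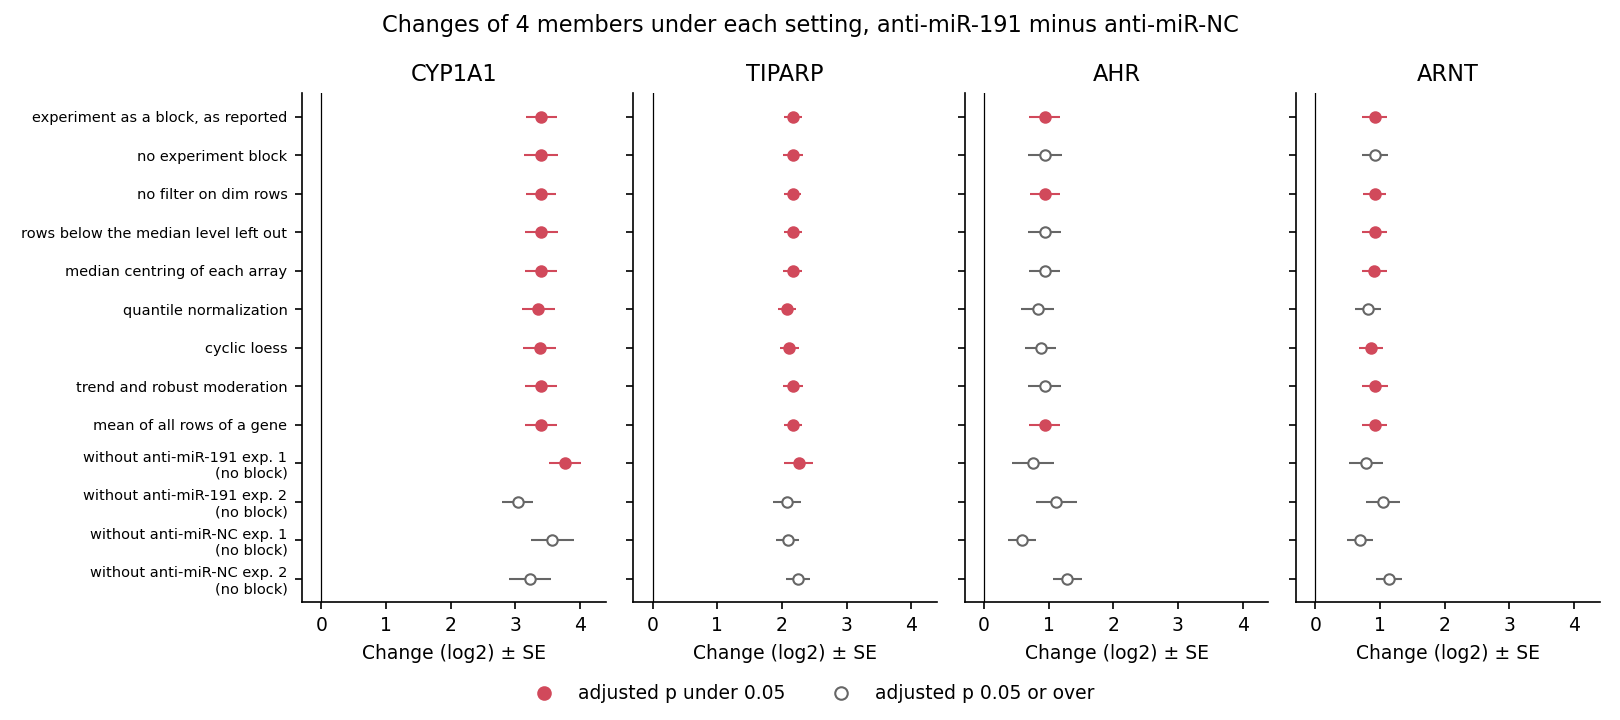
Rows are the reported fit and its 12 alternatives, and the horizontal axis of each panel is the change (anti-miR-191 minus anti-miR-NC, log2) with its SE. Filled points have an adjusted p under 0.05. CYP1A1 and TIPARP stay filled in the first 9 rows, whereas AHR is filled in 3 of them and ARNT in 7.

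Genes with the course most like that of a member were sought by the distance between their pairs of changes over the 2 experiments. Nearest to CYP1A1 were ARRDC3 (3.01 and 3.52 in experiments 1 and 2), the MAP kinase phosphatase gene DUSP1 (2.34 and 3.26) and CLIP4 (2.45 and 3.07), at log2 distances of 0.45, 0.86 and 0.96. Nearest to AHR were the integrin gene ITGA2 (1.54 and 0.39), the amino acid transporter gene SLC38A2 (1.55 and 0.51) and RRN3, a factor of RNA polymerase I (1.46 and 0.54), at distances of 0.07, 0.14 and 0.14. The nearest gene lay further from CYP1A1 than from AHR. CYP1A1 stands at the edge of all genes tested, so these distances do not show how distinct either course is. The likeness rests on 2 values for each gene.

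The tested genes nearest to the risen members in RefSeq order were also examined. Among the nearest genes tested on either side of CYP1A1, TIPARP, AHR and ARNT, 7 were not members, of which 2 rose and 0 fell (limma, with 0 lower also in the unpaired fit), where 10.1% of all genes rose. These neighbours were looked at after their values were known, and so small a count is no result about the neighbourhood. EDC3, an mRNA decapping factor gene, was the nearest tested gene on the lower-coordinate side of CYP1A1. It rose 2.07-fold (1.05 ± 0.17, limma's adjusted p = 0.0096 with the block and 0.037 without it). CCNL1, a cyclin gene tied to splicing, was the nearest tested gene on the higher-coordinate side of TIPARP. Its levels were 6.98 and 7.81 after anti-miR-191, against 5.39 and 5.44 in controls. It rose 3.96-fold (1.98 ± 0.20, limma's adjusted p = 0.0024 with the block and 0.027 without it). On the 2 sides of CYP1A1, EDC3 passed the threshold and CYP1A2 did not.

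Around the members, 83 genes of 6 pathway lists were examined, of which 59 were tested. Of these 11 rose and 0 fell with the block, 18.6% higher against 10.1% of all genes. In the unpaired fit 2 of the 59 rose, where 3.2% of all genes were higher. Their median change was 0.16, against 0.01 over all genes tested. The lists too were chosen with earlier results known, so these shares and medians are no test of the pathway. With 1 array left out, the changes of the 11 risen genes stayed positive, but most of their calls were lost. The smallest changes were then 0.37 for EP300 and 0.37 for MED1.

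Genes that AHR is known to induce in other settings split into those that rose and those that did not. Of 8 tested in this list, 4 rose and 0 fell, where 10.1% of all genes rose and 3.77% fell. Their median change was 0.64 (limma, 5 higher and 0 lower at an unadjusted p under 0.05). CDKN1B, the cell cycle inhibitor p27, rose 2.70-fold, and epiregulin (EREG), which activates the EGF receptor, rose 2.30-fold. HES1, a repressor in the Notch pathway, rose 2.14-fold, and NFE2L2, which encodes the oxidative stress factor NRF2, rose 1.81-fold. None of these 4 passed in the unpaired fit (adjusted p between 0.063 and 0.134), and HES1 was lost under quantile normalization too. NQO1, a quinone reductase and a classic member of the receptor's gene battery, had levels of 11.0 and 11.2 after anti-miR-191 and 11.2 and 11.2 in controls, a change of -0.10 ± 0.15 (limma's adjusted p = 0.722). SLC7A5, an amino acid transporter gene, had a change of 0.43 ± 0.15 (adjusted p = 0.108). With the 6 dim members of this list included, its median change was 0.11.

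Chaperones of the unliganded receptor were not among the genes called, whereas part of its coactivators was. Of 12 chaperones and coregulators tested, 3 rose and 0 fell, where 10.1% of all genes rose and 3.77% fell. Their median change was 0.19 (limma, 5 higher and 0 lower at an unadjusted p under 0.05). EP300, an acetyltransferase that coactivates AHR, rose 1.78-fold (adjusted p = 0.026 with the block and 0.188 without it). NRIP1, a coregulator of nuclear receptors, also rose 1.78-fold (0.014 and 0.047), and the Mediator subunit gene MED1 rose 1.47-fold (0.045 and 0.156). MED1 lost its call in 5 of the 8 alternatives with all arrays. HSP90AA1, which encodes the inducible HSP90 chaperone, differed by 0.65 in experiment 1 and by -0.75 in experiment 2, and HSP90AB1 had differences of 0.54 and -0.31, so that neither had a common direction.

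Other genes with PAS domains, the interaction domains that AHR and ARNT carry, included the clock repressor genes PER1 and PER2, which rose. Of 13 tested, these 2 rose and 0 fell (10.1% of all genes rose), with a median change of 0.18 (limma, 4 higher and 0 lower at an unadjusted p under 0.05). The PER proteins lack the bHLH domain with which AHR, ARNT and most others of the list bind DNA. PER2 rose 3.31-fold, with levels of 6.94 and 7.72 after anti-miR-191 against 5.64 and 5.56 in controls, and passed in both fits (adjusted p = 0.0042 and 0.031). PER1 rose 1.56-fold with the block (adjusted p = 0.048), but this call was lost in 7 of the 8 alternatives with all arrays, among them the unpaired fit (0.103). EPAS1, a hypoxia factor that pairs with ARNT, had a change of 0.47 ± 0.16 (adjusted p = 0.101), and the clock gene NPAS2 one of 0.29 ± 0.14 (adjusted p = 0.244).

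The relatives of TIPARP had smaller changes than TIPARP itself. Of 11 PARP family genes tested, 2 rose and 0 fell, where 10.1% of all genes rose and 3.77% fell. Their median change was 0.10 (limma, 3 higher and 0 lower at an unadjusted p under 0.05). PARP16, anchored in the endoplasmic reticulum, rose 1.66-fold (adjusted p = 0.038 with the block and 0.104 without it), and PARP12 rose 1.62-fold (0.024 and 0.081). PARP16 was lost in 4 of the 8 alternatives with all arrays and PARP12 in 2. PARP1, the main DNA damage sensor of the family, had changes of 0.36 and -0.29 in experiments 1 and 2. PARP3, another nuclear member, had a change of 0.10 ± 0.14 (adjusted p = 0.721).

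The enzymes that supply P450s with electrons and haem, and the targets of other xenobiotic receptors, held no gene past the threshold. In lists this short that says little, since 10.1% of all genes rose and 3.77% fell. Of 11 electron donor and haem synthesis genes, limma called 0, with 2 higher and 2 lower at an unadjusted p under 0.05, and the median change was 0.00. UROD of haem synthesis had a change of -0.43 ± 0.15 (adjusted p = 0.104) and cytochrome b5, CYB5A, one of -0.33 ± 0.15 (adjusted p = 0.201). Of 4 tested genes of the pregnane and androstane receptor list, limma called 0, with 0 at an unadjusted p under 0.05. The partner receptor gene RXRA had a change of -0.07 ± 0.15 (adjusted p = 0.798) and the drug efflux pump gene ABCB1 one of 0.39 ± 0.21 (adjusted p = 0.277), from changes of 0.81 and -0.03 in experiments 1 and 2. CYP3A4, CYP2C8 and NR1I3 were dim and not tested.

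**Figure D4:**
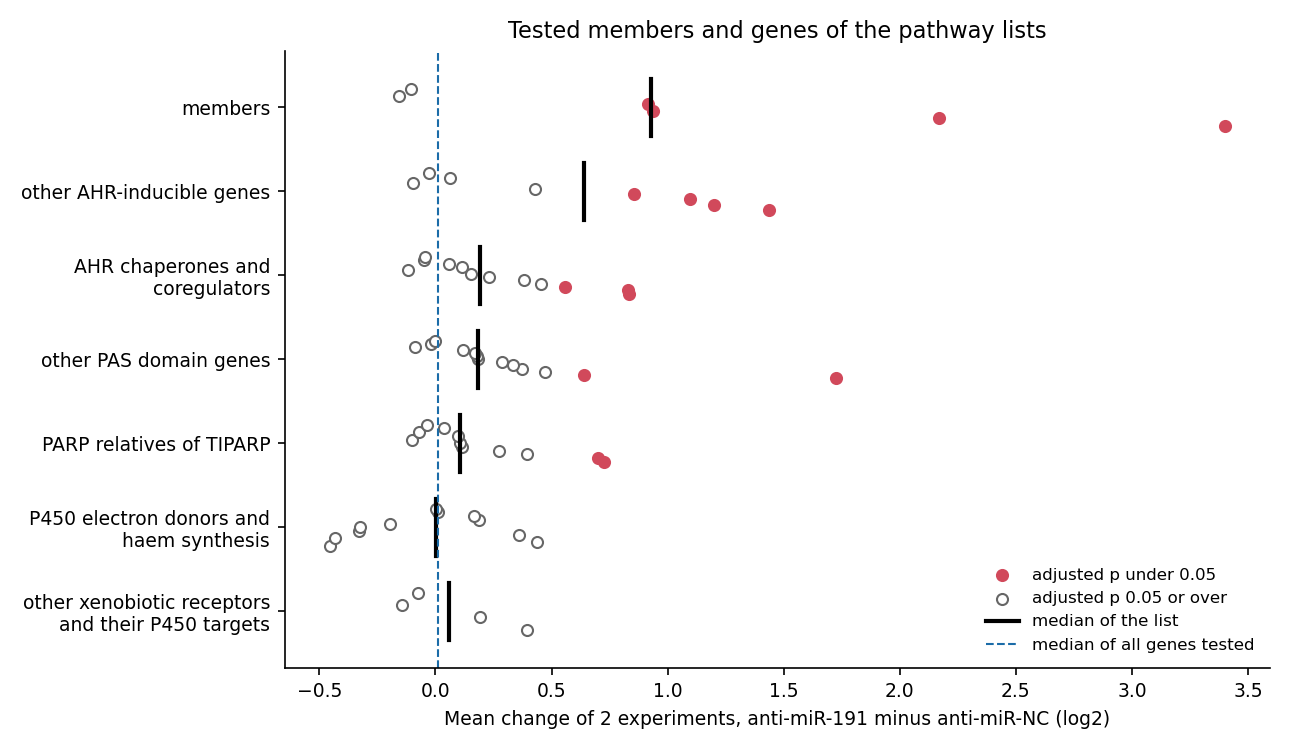
Each point is a tested gene, placed by its mean change (anti-miR-191 minus anti-miR-NC, log2), with 1 row of points for the members and for each of the 6 pathway lists. Filled points have an adjusted p under 0.05, black bars are list medians, and the dashed line is the median of all genes tested. The members reach furthest to the right, and the 2 lowest lists hold no filled point.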

How the data were processed

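Gene expression was measured in 4 HepG2 cultures on 1-colour Affymetrix arrays. The authors deposited 1 table of log2 RMA intensities, and the submitters' processing notes name Affymetrix Expression Console as the software. RMA subtracts background, brings arrays to a common scale and combines probes. No source used here gives its version, and the log base was inferred from the values. Intensities carry no counting depth, so the number of arrays limits the precision.

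The platform annotation of 2016 gave 1 symbol for 19460 of 33297 rows, several for 1754 and none for 12083. By Entrez identifier 19429 matched the RefSeq table (GRCh38.p14), and 0 symbols changed. Rows below a mean level of 3.41 were left out, and the brightest row stood for a gene. Fits used limma 3.58.1 (lmFit, eBayes) in R 4.3.3 with two-sided tests, and p-values were adjusted over the 14147 genes by Benjamini-Hochberg at a threshold of 0.05. The experiment was a block (1 residual degree of freedom, 6.60 prior), and the unpaired fit (2 residual, 4.32 prior) was the alternative. The series text calls the duplicates independent studies, and the titles number both groups, which gives the pairing. Deviations of same-numbered arrays correlated at 0.335 across genes, a single value with 2 arrays a group. The p-values measure the spread between 2 cultures a group, or between 2 experiments' changes, moderated across genes.

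The members and lists were chosen with earlier results of these data known. Named are all members, listed genes past the threshold, the 2 brightest others of each list and the 3 genes nearest to CYP1A1 and to AHR. EDC3, CCNL1, FGB, TTR, PTPRC, LYZ, CYP3A4, CYP2C8 and NR1I3 were named after their values were seen, and the look at neighbouring genes was added then. Alternatives changed the block, the dim limit, the scaling, the moderation, the choice of row and the arrays used. The fits were tested on simulated data. Figures were drawn with matplotlib 3.10.9.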

Additional observations from a re-analysis of the deposited data

How the results depend on the processing

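The number of members that rose was 4 with the block, 2 with no replicate block, 2 under quantile normalization, 3 or 4 under the 6 other alternatives with all arrays, and between 0 and 2 when 1 array was left out. Of 59 listed genes 11 passed with the block, 2 with no replicate block, 5 under quantile normalization, and between 0 and 4 with 1 array left out. Over all genes 1961 passed with the block and 553 without it, and between 0 and 339 with 1 array left out (at an unadjusted p under 0.05, limma had 1663, 2432 and 3178 genes in the 3 omissions that gave 0). The cause of these losses was not tested. No risen gene named changed direction. Among named genes not called, PARP1 changed sign under quantile normalization (-0.095) and cyclic loess (-0.023) and PARP3 under quantile normalization (-0.036). With 1 array left out the sign also turned for CYP1A2 (-0.34 to 0.026), HSP90AB1 (-0.27 to 0.49), HSP90AA1 (-0.41 to 0.31, and 0.29 without the control of experiment 2), NQO1 (-0.20 to 0.0073), RXRA (-0.23 to 0.081) and PARP1 (-0.28 to 0.35). With 1 array left out, the lone array of a group is assumed to vary like the other group. The values come with no detection call, so background left within a control level is unknown for every fold. The design, 2 arrays a group, limits all of these values.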
